A study of Mus musculus with 6 samples.

Results

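The respiratory chain subunits are the nuclear genes for the protein subunits of complexes I to V of the inner mitochondrial membrane and for cytochrome c. They were chosen by symbol (Ndufa, b, c, s and v followed by a digit, Sdha to Sdhd, Uqcr, Cyc1, Cycs, Cox4 to Cox8, and Atp5), which gave 83 of the 19938 genes measured. Sorted by symbol, 35 were counted in complex I, 4 in complex II, 9 in complex III, 17 in complex IV and 17 in complex V, beside Cycs. Ndufa4 and its relative Ndufa4l2 are thus counted in complex I in all counts, medians and figures, though they are described below with complex IV. Expression was measured on Affymetrix Gene 1.0 ST arrays in F4/80+ cells isolated from tumours implanted in St2-/- mice (3 samples) and in wild type mice (3 samples), with 1 array per sample. Antibodies to F4/80 are used to sort macrophages in mice, and ST2 binds IL-33, a cytokine released by damaged tissue. The implanted tumours themselves are not said to lack St2, and the labels give neither strain, age and sex of the hosts nor the tumour line. The targeted gene was not analysed here, so the genotype labels were not checked against it. The comparison asks how expression in these cells differed with the loss of ST2 in the host.

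In the respiratory chain, complex I takes electrons from NADH and complex II takes them from succinate, and both pass them to ubiquinone. Complex III hands them to cytochrome c and complex IV to oxygen, and the protons pumped by complexes I, III and IV drive complex V, the ATP synthase. A few core subunits are encoded in mitochondrial DNA and the others in nuclear DNA, so that assembly needs both genomes. As background, macrophages activated by IL-4 are known for oxidative metabolism, and macrophages activated by interferon and bacterial products for glycolysis and for itaconate, which inhibits complex II.

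Values are the deposited log2 RMA levels, differences are St2-/- minus wild type on that scale, and a gene was called higher or lower at a limma adjusted p under 0.05 (Benjamini-Hochberg over all genes). Having 3 arrays a group limits the precision. Nothing in the labels says whether each sample is a mouse of its own, so the spread behind every p-value may be technical. Over all 19938 genes the array medians were 5.82, 5.82 and 5.81 in St2-/- samples and 5.91, 5.88 and 5.93 in wild type samples. The macrophage genes Adgre1 (F4/80), Csf1r and Cd68 had mean levels of 11.63, 12.11 and 12.53 in St2-/- samples and 11.32, 12.07 and 12.57 in wild type samples. Over the 13 macrophage markers 2 were called higher and 5 lower. Higher were Fcgr1 (0.36) and Adgre1 (0.31), and lower were Mrc1 (-1.64), Msr1 (-0.76), Mertk (-0.72), Lyz2 (-0.71) and Cd14 (-0.35). The mean level of the 13 was 11.32 to 11.38 in St2-/- samples and 11.58 to 11.63 in wild type samples. Markers of other cells differed between the groups: of 7 fibroblast markers 6 were lower and 1 higher, of 9 neutrophil markers 4 were lower and 1 higher, of 10 T and NK cell markers 6 were higher, and of 8 dendritic cell markers 3 were higher and 2 lower. The mean level of the fibroblast list was 6.52 to 6.65 in St2-/- samples and 8.10 to 8.14 in wild type samples, that of the neutrophil list 4.83 to 4.89 and 5.38 to 5.41, that of the T and NK cell list 5.23 to 5.29 and 4.71 to 4.82, and that of the dendritic cell list 6.56 to 6.64 and 5.71 to 5.89, each with St2-/- first. The part of these cells in the results below was not tested, and in sorted bulk cells fewer cells of a type and less RNA per cell cannot be told apart.

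Most respiratory chain subunits were not called, and those that were nearly all rose by small amounts. A missing call does not show that a subunit was unchanged, since 69 of the 83 differences were under 0.25 in size and the median SE was 0.07. Of the 83 members 13 were called higher and 1 lower, which is 16.9%, against 20.8% of all genes (10.7% higher and 10.0% lower). The members are mostly bright, with 57 of 83 in the brightest of 5 equal bins of genes by mean signal, where 37.8% of all genes were called (26.4% higher and 11.4% lower). Of those 57 members 10 (17.5%) were called, all higher. Whether the share of members called differs from that of other genes was not tested. In the middle bin of signal, where 22.6% of all genes were called, 2 of 6 members were called, the isoforms Cox4i2 and Cox7a1.

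The members differed from one another by little. Their median difference was 0.11, against -0.02 over all genes and 0.08 over the brightest bin, and the 83 differences lay between -0.31 and 0.47. In the middle part of the list they lay between 0.01 and 0.19 (25th to 75th percentile), against -0.06 and 0.24 over the brightest bin. A difference above 0 was seen for 63 members (75.9%), against 45.0% of all genes and 66.5% of the brightest bin. The arrays of the groups did not overlap for 43 of the 83 members, against 36.4% of all genes. In the brightest bin they did not overlap for 34 of 57 members and for 2453 of 3988 genes. Every St2-/- array lay above every wild type array for 39 members, where 18.1% of all genes and 42.8% of the brightest bin did so, and below for 4 members (Sdhc, Cox7a1, Cox6a1 and Atp5j), where 18.3% of all genes did so. The median level of the members was 8.90, 8.85 and 8.94 in St2-/- samples, against 8.76, 8.77 and 8.69 in wild type samples. These shifts are small beside the scaling: the members' median difference was 0.20 after each array was centred on its median, with 34 members higher and 1 lower, and 0.02 after cyclic loess between arrays, with 7 higher and 3 lower. The order of the shares turned with the setting: 42.2% of members and 25% of all genes were called with centred arrays, 30.1% and 24.4% with a variance prior that follows intensity, and 12% and 18.5% after cyclic loess.

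**Figure D1:**
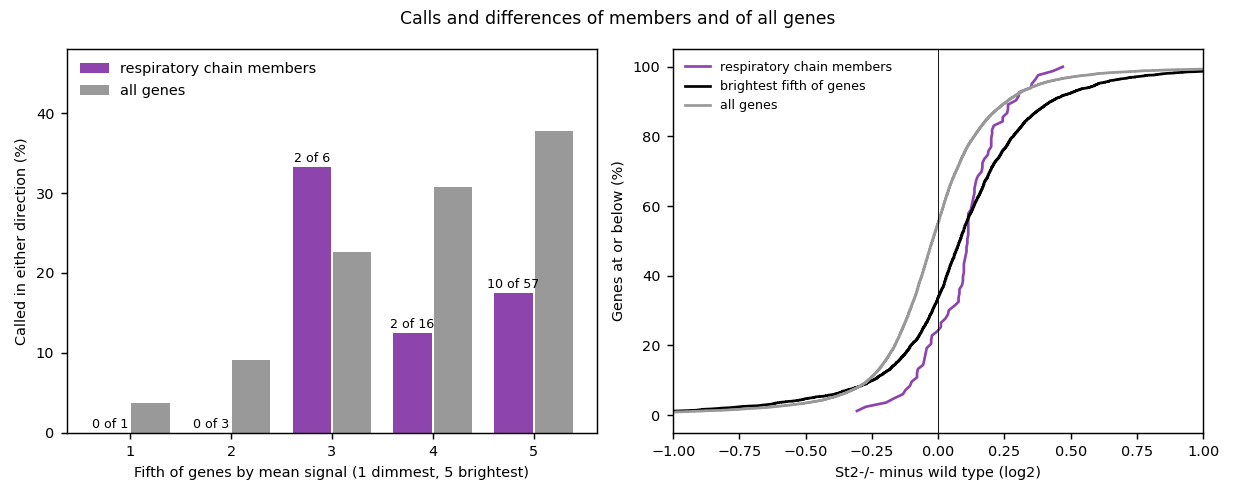
Left, the share of genes called in either direction (percent) in 5 bins of genes by mean signal from dimmest to brightest, with bars for respiratory chain members and for all genes and the count of members above their bar; right, the cumulative share of genes (percent) by St2-/- minus wild type difference (log2). In the brightest bin 17.5% of members and 37.8% of all genes were called, and the members' curve is steeper than either curve of other genes.

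The complexes had like medians: 0.11 for complex I, 0.11 for complex II, 0.09 for complex III, 0.13 for complex IV and 0.11 for complex V, and cytochrome c differed by 0.11. Calls were 6 higher of 35 in complex I, 0 of 4 in complex II, 1 higher of 9 in complex III, 3 higher and 1 lower of 17 in complex IV, and 3 higher of 17 in complex V. At an unadjusted limma p under 0.05 complex II had 1 of its 4 members (Sdhd), and the 83 members had 25, where 33.0% of all genes passed that threshold.

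**Figure D2:**
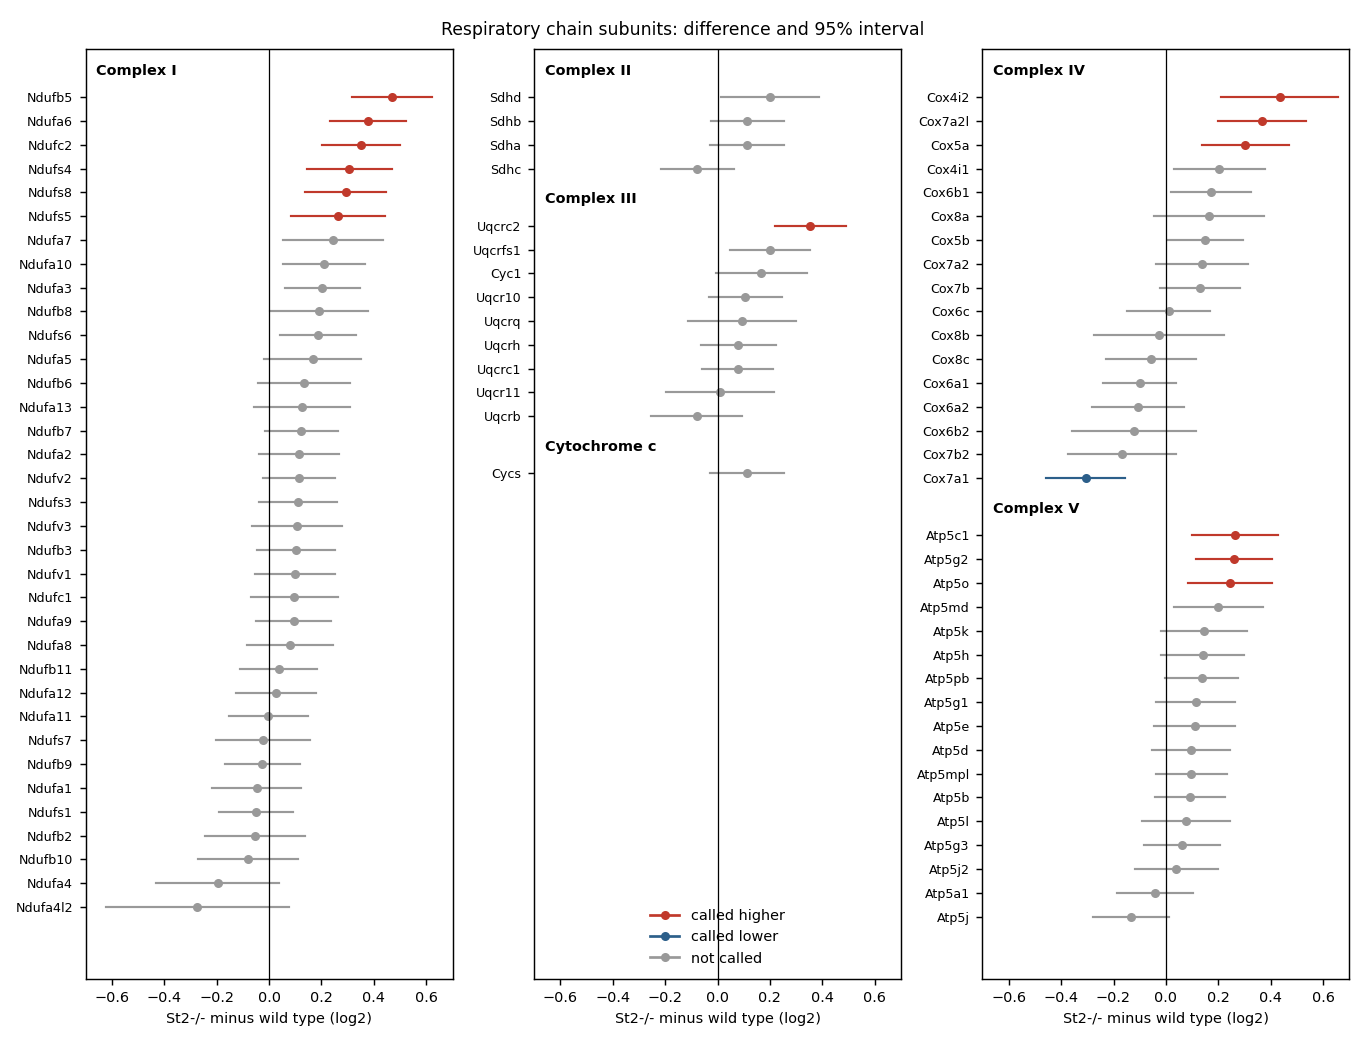
St2-/- minus wild type difference (log2) of each of the 83 members, grouped by complex, with the 95% interval from limma as a line; red marks members called higher, blue the member called lower and grey those not called. Ndufb5 stands at the top of complex I with 0.47 and Cox7a1 at the foot of complex IV with -0.31, and the 69 grey points lie between -0.27 and 0.24.

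Among the called members several have promoters with a match to the recognition letters of NRF1, a factor long known for nuclear genes of respiration. RefSeq promoter windows (250 bases before to 50 after the start, GRCm38.p6) were matched for 67 of the 83 members. The NRF1 letters, GCGCA, then any base, then GCGC, on either strand, were in the window of 16 of these 67 (23.9%), against 5.19% of 27025 genes with a window. They were in 5 of the 12 called members with a window (Ndufa6, Ndufs5, Atp5g2, Atp5c1 and Atp5o) and in 11 of the 55 others. The ETS letters CCGGAAG were in 25.4% of members and 9.93% of genes, and the YY1 letters AANATGGC in 25.4% and 6.96%. Of the called members 1 held the ETS letters and 3 the YY1 letters, against 16 and 14 of the 55 others. The letters TGACGTCA of the CRE were in 7.46% of members and 2.03% of genes. The shorter letters were at 41.8% of members and 38.2% of genes for GGGCGG, 26.9% and 21.8% for ACGTG, and 11.9% and 15.7% for TATAAA. A match is a description of the window, and the motifs were chosen with the calls known.

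Windows of 5 called members are shown 5′ to 3′ on the strand of the gene, because they hold the greatest rise in complex I, 3 of the NRF1 matches and the sole fall. Capitals mark the YY1 letters in Ndufb5 (chr3:32736813-32737112 on the plus strand), which holds them 2 times, and the NRF1 letters in Ndufa6 (chr15:82354242-82354541 on the minus strand), Atp5g2 (chr15:102670998-102671297 on the minus strand) and Atp5o (chr16:91931581-91931880 on the minus strand). Cox7a1 (chr7:30183921-30184220 on the plus strand) has no match to the NRF1, ETS or YY1 letters and is in lower case throughout. Its window does hold the ACGTG letters on either strand, as does that of Atp5g2, and these are left unmarked.
Ndufb5: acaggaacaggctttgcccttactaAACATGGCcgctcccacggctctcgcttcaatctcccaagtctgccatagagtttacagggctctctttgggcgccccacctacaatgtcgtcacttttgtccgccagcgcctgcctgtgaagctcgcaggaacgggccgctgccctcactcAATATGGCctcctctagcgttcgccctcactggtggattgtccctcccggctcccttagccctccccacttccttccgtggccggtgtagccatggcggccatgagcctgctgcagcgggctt
Ndufa6: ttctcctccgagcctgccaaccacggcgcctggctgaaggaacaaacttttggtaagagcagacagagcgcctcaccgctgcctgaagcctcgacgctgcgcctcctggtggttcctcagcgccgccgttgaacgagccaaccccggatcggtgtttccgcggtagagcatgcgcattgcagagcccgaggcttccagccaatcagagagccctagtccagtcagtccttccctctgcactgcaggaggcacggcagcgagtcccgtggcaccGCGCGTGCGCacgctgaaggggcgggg
Atp5g2: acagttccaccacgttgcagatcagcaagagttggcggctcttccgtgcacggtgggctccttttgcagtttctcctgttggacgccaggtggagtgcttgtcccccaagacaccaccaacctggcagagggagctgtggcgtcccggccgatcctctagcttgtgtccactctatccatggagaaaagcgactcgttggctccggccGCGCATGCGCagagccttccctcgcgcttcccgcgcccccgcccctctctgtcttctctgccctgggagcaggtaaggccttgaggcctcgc
Atp5o: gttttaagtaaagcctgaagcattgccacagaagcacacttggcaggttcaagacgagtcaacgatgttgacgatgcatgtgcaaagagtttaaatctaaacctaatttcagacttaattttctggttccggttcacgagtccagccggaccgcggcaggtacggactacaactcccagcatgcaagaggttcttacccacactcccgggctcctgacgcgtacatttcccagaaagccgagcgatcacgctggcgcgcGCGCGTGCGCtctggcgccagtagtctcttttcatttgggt
Cox7a1: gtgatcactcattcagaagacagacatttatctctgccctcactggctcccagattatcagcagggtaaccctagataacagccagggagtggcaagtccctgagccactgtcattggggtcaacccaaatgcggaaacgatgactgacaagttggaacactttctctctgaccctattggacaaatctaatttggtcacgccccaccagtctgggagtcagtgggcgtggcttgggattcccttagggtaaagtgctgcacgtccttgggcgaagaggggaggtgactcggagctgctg

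Complex I held 6 members called higher, of which 5 are accessory subunits. Ndufb5, an accessory subunit of the membrane arm whose window is printed above, had 8.11, 8.05 and 8.19 in St2-/- samples, against 7.72, 7.62 and 7.60 in wild type samples. The groups did not overlap, and its difference of 0.47 ± 0.07 (SE), a 1.39-fold higher level, was the greatest of all 83 members (limma adjusted p = 0.000973). Ndufa6, an accessory subunit of the matrix arm, had 8.65, 8.64 and 8.72 in St2-/- samples, against 8.33, 8.33 and 8.22 in wild type samples (0.38 ± 0.06 SE, limma adjusted p = 0.00275). Ndufc2, an accessory subunit of the membrane arm, had 10.01, 9.91 and 10.07 in St2-/- samples, against 9.68, 9.62 and 9.64 in wild type samples (0.35 ± 0.07 SE, limma adjusted p = 0.00482). These 3 genes kept their calls under all 14 alternative settings.

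The other 3 called members of complex I rose less and depended on single arrays. Ndufs4, an accessory subunit beside the NADH-oxidising part whose loss causes Leigh-like disease in mice, had 8.25, 8.24 and 8.27 in St2-/- samples, against 8.03, 7.99 and 7.82 in wild type samples (0.31 ± 0.07 SE), and its limma adjusted p of 0.0141 became 0.0534 without St2-/- replicate 3. Ndufs8, which carries iron-sulphur clusters of the electron path, had 9.28, 9.35 and 9.31 in St2-/- samples, against 9.04, 9.10 and 8.92 in wild type samples (0.29 ± 0.07 SE). The wild type arrays varied more than the St2-/- arrays in both. The limma adjusted p of Ndufs8, 0.0142, became 0.0542 without St2-/- replicate 2 and 0.0667 after cyclic loess. Ndufs5, an accessory subunit on the intermembrane side, had 7.72, 7.72 and 7.66 in St2-/- samples, against 7.30, 7.58 and 7.43 in wild type samples (0.26 ± 0.08 SE, limma adjusted p = 0.0436). It lost the call without any array other than wild type replicate 2 (limma adjusted p from 0.0851 to 0.126) and after cyclic loess (0.115), and a probe set shared with its pseudogene Ndufs5-ps differed by 0.14 and was not called.

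The other subunits that carry the electrons of complex I were not called. Ndufv1, which binds NADH and flavin, differed by 0.10 (95% interval -0.05 to 0.25), and its iron-sulphur partner Ndufv2 by 0.11 (-0.02 to 0.25). Ndufs1, which holds iron-sulphur clusters next to them, differed by -0.05 (-0.19 to 0.09), Ndufs3 by 0.11 (-0.04 to 0.26) and Ndufs7, at the ubiquinone site, by -0.02 (-0.20 to 0.16). The upper ends for Ndufv1, Ndufv2 and Ndufs3 reach the 0.24 of the smallest called rise. Ndufab1, the acyl carrier protein that is also a subunit of complex I and whose symbol falls outside the rule, was called higher, with 8.04, 8.07 and 8.06 in St2-/- samples, against 7.70, 7.81 and 7.81 in wild type samples (0.28 ± 0.06 SE, limma adjusted p = 0.0110).

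Complex II, succinate dehydrogenase, had no called member in limma. Sdha, the flavin subunit that oxidises succinate, had 10.17, 10.06 and 10.16 in St2-/- samples, against 9.99, 10.02 and 10.04 in wild type samples, a difference of 0.11 (95% interval -0.03 to 0.26). Sdhb, the iron-sulphur subunit, differed by 0.11 (-0.03 to 0.25) and Sdhd, a membrane anchor, by 0.20 (0.01 to 0.39). Sdhc, the other membrane anchor, went the opposite way, at 9.05, 9.05 and 8.98 in St2-/- samples, against 9.06, 9.10 and 9.15 in wild type samples (-0.08, -0.22 to 0.06). The groups did not overlap in any of the 4 genes, though they were close in each. The nearest arrays, St2-/- first, had 10.06 and 10.04 in Sdha, 9.09 and 9.06 in Sdhd, and 9.05 and 9.06 in Sdhc. All 4 genes are in the brightest bin, where the groups did not overlap for 2453 of 3988 genes. Sdha, Sdhb and Sdhd passed when arrays were centred on their median (limma adjusted p = 0.0477, 0.0480 and 0.0350), and Sdhd also with a variance prior that follows intensity (0.0420).

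In complex III 1 member was called. Uqcrc2, a core protein on the matrix side, had 9.71, 9.72 and 9.77 in St2-/- samples, against 9.41, 9.38 and 9.35 in wild type samples, a difference of 0.35 ± 0.06 (SE) with a limma adjusted p of 0.00261, and it kept its call under all 14 alternative settings. Its partner core protein Uqcrc1 differed by 0.08 (95% interval -0.06 to 0.21). The electron carriers were not called: the Rieske iron-sulphur protein Uqcrfs1 differed by 0.20 (0.05 to 0.35) and cytochrome c1, Cyc1, by 0.17 (-0.01 to 0.34). Uqcrb, at the ubiquinone site, had the lowest difference of the complex, -0.08 (-0.25 to 0.09). Cycs, the soluble cytochrome c that carries electrons to complex IV and also triggers apoptosis when released, had 10.29, 10.33 and 10.37 in St2-/- samples, against 10.16, 10.23 and 10.26 in wild type samples. The groups were close without overlapping, and its difference of 0.11 (-0.03 to 0.25) was not called. Its other probe sets differed by 0.08 and -0.01 in a limma fit over all probe sets and were not called. The latter was much dimmer, with means of 6.07 in St2-/- samples and 6.08 in wild type samples. Cycs is known for many processed pseudogenes, and the probes may not tell them apart, so its value is uncertain. The same limit holds for other members with near-identical copies.

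**Figure D3:**
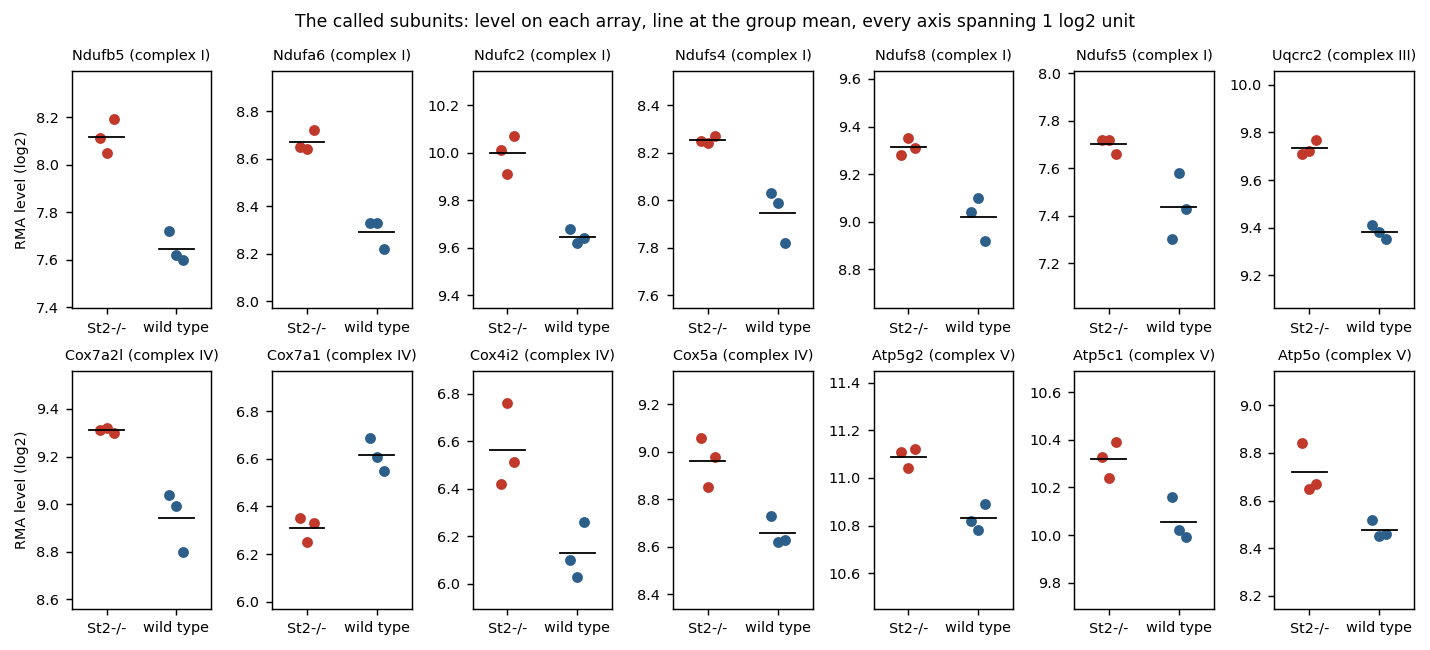
RMA level (log2) of the 14 called members on each array, St2-/- left in red and wild type right in blue, with a line at each group mean and axes that each span 1 log2 unit. The St2-/- points lie above all wild type points in 13 panels and below them in that of Cox7a1.

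Complex IV, cytochrome c oxidase, held the members that moved apart, and among them were isoforms known from particular tissues or conditions. Cox4i2, an isoform of subunit 4 known from lung and smooth muscle and induced by low oxygen, had 6.42, 6.76 and 6.51 in St2-/- samples, against 6.10, 6.03 and 6.26 in wild type samples. It rose by 0.43 ± 0.10 (SE, limma adjusted p = 0.0123). The usual isoform Cox4i1 had 9.31, 9.11 and 9.21 in St2-/- samples, against 8.90, 9.05 and 9.07 in wild type samples, and its difference of 0.20 (95% interval 0.03 to 0.38) was not called (limma adjusted p = 0.0981). Cox7a1, the isoform of heart and skeletal muscle, had 6.35, 6.25 and 6.33 in St2-/- samples, against 6.69, 6.61 and 6.55 in wild type samples. It fell by 0.31 on the log2 scale (SE 0.07, limma adjusted p = 0.00987) and was the sole member called lower. Its usual counterpart Cox7a2 differed by 0.14 (-0.04 to 0.31). Cox4i2 and Cox7a1 kept their calls under all 14 alternative settings, with limma adjusted p of at most 0.0442 and 0.0480.

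Of 14 markers of muscle, 0 were called lower and 1 (Tnnt2, 0.29) was higher (7.14% called, against 20.8% of all genes). Their mean level was 5.40 to 5.45 in St2-/- samples and 5.39 to 5.48 in wild type samples. The part of muscle in the fall of Cox7a1 was not tested. The other isoforms of muscle were not called, Cox6a2 at -0.11 (-0.28 to 0.07) and Cox8b at -0.03 (-0.27 to 0.22). The isoforms of testis were not called either, Cox6b2 at -0.12 (-0.36 to 0.11), Cox7b2 at -0.17 (-0.37 to 0.04) and Cox8c at -0.06 (-0.23 to 0.11). The fibroblast markers, which fell as given above, include Pdgfrb, which pericytes express, and their part in the values of Cox4i2 and Cox7a1 was not tested. Of 5 markers of brown fat 1 was called lower and 0 higher (20% called, against 20.8% of all genes), and 0 had a difference above 0. Their mean level was 4.25 to 4.30 in St2-/- samples and 4.48 to 4.51 in wild type samples. The part of brown fat in the fall of Cox7a1 was not tested either.

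Cox7a2l, which joins complex III to complex IV in supercomplexes, had 9.31, 9.32 and 9.30 in St2-/- samples, against 9.04, 8.99 and 8.80 in wild type samples (0.37 ± 0.08 SE, limma adjusted p = 0.00724). Its other probe set rose as well in a limma fit over all probe sets (0.49, adjusted p = 0.00484), with 9.12, 9.08 and 9.20 in St2-/- samples, against 8.69, 8.58 and 8.66 in wild type samples, and the gene kept its call under all 14 alternative settings. C57BL/6 mice are known to carry a shortened form of Cox7a2l, and since the labels do not give strains, strain and genotype cannot be told apart. Cox5a, a nuclear subunit found in all tissues, had 9.06, 8.85 and 8.98 in St2-/- samples, against 8.73, 8.62 and 8.63 in wild type samples (0.30 ± 0.07 SE, limma adjusted p = 0.0172). Its call was lost without St2-/- replicate 1 (0.0682), St2-/- replicate 3 (0.0611) or wild type replicate 2 (limma adjusted p = 0.0513) and after cyclic loess (0.0570).

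The remaining usual subunits of complex IV were not called. Differences were 0.17 (95% interval 0.02 to 0.33) for Cox6b1, 0.16 (-0.05 to 0.37) for Cox8a and 0.13 (-0.02 to 0.28) for Cox7b. Cox6a1 was lower on every St2-/- array, at 10.14, 10.06 and 10.12, against 10.24, 10.17 and 10.21 in wild type samples, and differed by -0.10 (-0.24 to 0.04). It was called lower only after cyclic loess (-0.20, limma adjusted p = 0.0439), of the 14 alternatives. Cox7c shares its 3 probe sets with another symbol, and these differed by 0.07, 0.08 and 0.11 without being called. Ndufa4, named for complex I and now known as a subunit of complex IV, had 8.61, 8.50 and 8.58 in St2-/- samples, against 8.82, 8.95 and 8.51 in wild type samples (-0.20, -0.43 to 0.04). The groups overlapped through wild type replicate 3, and without that array Ndufa4 was called lower (-0.32, limma adjusted p = 0.0207). Its relative Ndufa4l2, which low oxygen induces, had 5.48, 5.07 and 4.93 in St2-/- samples, against 5.14, 5.60 and 5.56 in wild type samples (-0.27, -0.62 to 0.08). The isoforms known for low oxygen, Cox4i2 and Ndufa4l2, had differences of opposite sign. Of these only Cox4i2 was called, and the interval of Ndufa4l2 held both signs. A part of oxygen in these values was not tested.

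In complex V 3 members rose, by 0.24 to 0.26. Atp5g2, 1 of 3 genes for the same c subunit of the membrane ring, had 11.11, 11.04 and 11.12 in St2-/- samples, against 10.82, 10.78 and 10.89 in wild type samples (0.26 ± 0.06 SE, limma adjusted p = 0.0178). Its other 2 probe sets rose by 0.24 and 0.26 in a limma fit over all probe sets (adjusted p = 0.0497 and 0.0422), while the other genes for the c subunit, Atp5g1 (0.11, 95% interval -0.04 to 0.26) and Atp5g3 (0.06, -0.08 to 0.20), were not called. Atp5c1, the gamma subunit that forms the turning stalk, had 10.33, 10.24 and 10.39 in St2-/- samples, against 10.16, 10.02 and 9.99 in wild type samples (0.26 ± 0.07 SE, limma adjusted p = 0.0308). The groups did not overlap for Atp5g2, Atp5c1 and Atp5o, where 36.4% of all genes showed no overlap. They did overlap for Atp5g1 and Atp5g3. Atp5o, the subunit that ties the catalytic head to the outer stalk, had 8.84, 8.65 and 8.67 in St2-/- samples, against 8.52, 8.45 and 8.46 in wild type samples (0.24 ± 0.07 SE, limma adjusted p = 0.0391).

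The calls of complex V depended on single arrays and on the scaling. Atp5g2 lost its call without St2-/- replicate 1 (limma adjusted p = 0.0608), St2-/- replicate 3 (0.0711) or wild type replicate 2 (0.0547) and after cyclic loess (0.103). Atp5c1 lost it without St2-/- replicate 1 (limma adjusted p = 0.0849), St2-/- replicate 3 (0.117), wild type replicate 2 (0.0798) or wild type replicate 3 (0.0883) and after cyclic loess (0.123). Atp5o lost it without any of the 6 arrays (limma adjusted p from 0.0520 to 0.131) and after cyclic loess (0.148). The catalytic head itself was not called: the alpha subunit Atp5a1 differed by -0.04 (-0.19 to 0.10) and the beta subunit Atp5b by 0.09 (-0.04 to 0.22). Atp5b had 11.45, 11.43 and 11.47 in St2-/- samples, against 11.33, 11.38 and 11.37 in wild type samples. Atp5j, the coupling factor of the outer stalk, was lower on every St2-/- array, at 9.66, 9.59 and 9.60, against 9.71, 9.72 and 9.82 in wild type samples (-0.13, -0.28 to 0.01), and was called lower after cyclic loess (-0.23, limma adjusted p = 0.0362).

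The 2 subunit genes of mitochondrial DNA analysed here had lower levels on every St2-/- array than on any wild type array. Of these 2 genes 1 was called, where 20.8% of all genes were called. ND3, a membrane subunit of complex I, had 11.40, 11.45 and 11.52 in St2-/- samples, against 12.05, 12.20 and 11.99 in wild type samples. It fell by 0.62 on the log2 scale (SE 0.07, limma adjusted p = 0.000273), and its other probe set, with 11.44, 11.65 and 11.55 in St2-/- samples, against 11.97, 12.06 and 11.88 in wild type samples, fell by 0.42 on the log2 scale (limma adjusted p = 0.0197 over all probe sets). COX2, the mitochondrial gene for subunit 2 of complex IV, had 13.08, 13.17 and 13.18 in St2-/- samples, against 13.33, 13.30 and 13.32 in wild type samples, and its difference of -0.17 ± 0.06 (SE) was not called (limma adjusted p = 0.0799). In both genes every St2-/- array lay below every wild type array, where 18.3% of all genes did so. Both are in the brightest bin, where 745 of 3988 genes did so. ND3 kept its call under all 14 alternative settings (-0.71 to -0.52), and COX2 was called with the intensity trend (limma adjusted p = 0.000821), after cyclic loess (0.0199) and without dim genes (0.0358). Of the 13 protein genes of mitochondrial DNA only these 2 were analysed here with a probe set of their own. A probe set that ND6, another subunit of complex I, shares with the symbol Acsm2 had 9.57, 9.58 and 9.34 in St2-/- samples, against 9.72, 9.68 and 9.86 in wild type samples (-0.26, limma adjusted p = 0.127 over all probe sets, of which 12.9% were called). The difference between nuclear and mitochondrial genes was not tested.

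**Figure D4:**
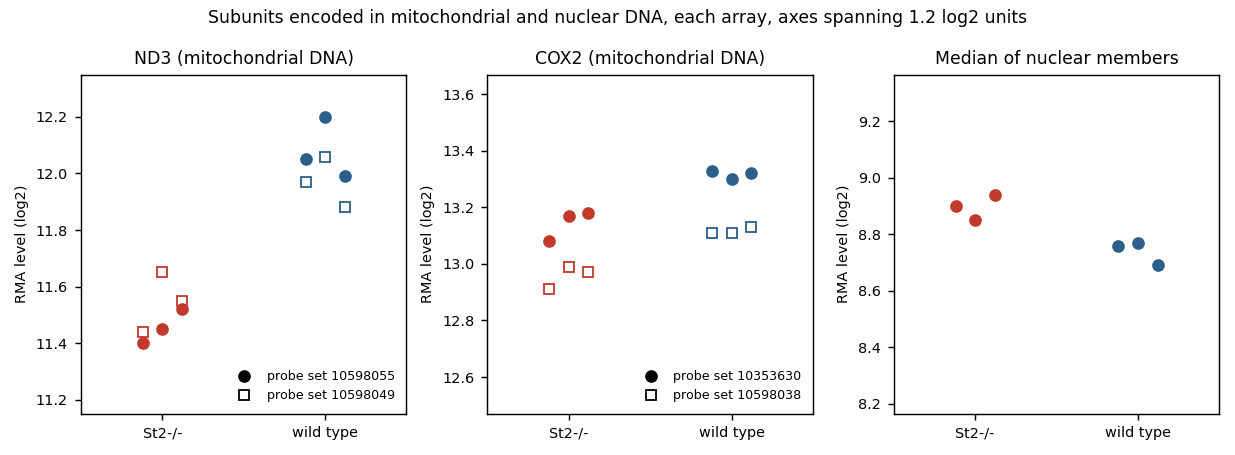
RMA level (log2) on each array of both probe sets of ND3 (left) and COX2 (middle), encoded in mitochondrial DNA, and the median level of the 83 nuclear members (right), with St2-/- in red left of wild type in blue. The St2-/- points of ND3 and COX2 lie below the wild type points within each probe set, and the median of nuclear members lies above, at 8.85 to 8.94 against 8.69 to 8.77.

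Genes that serve the respiratory chain without being members numbered 120, of which 18 were called higher and 2 lower (16.7%), again near the 20.8% of all genes, with a median difference of 0.06. Factors that assemble complex IV held 7 of these calls, all higher, among 22 measured. Cox18, which inserts COX2 into the membrane, had 8.16, 8.20 and 8.10 in St2-/- samples, against 7.64, 7.42 and 7.60 in wild type samples (0.60 ± 0.08 SE, limma adjusted p = 0.000381). Coa5 rose by 0.50, Sco1, which brings copper to COX2, by 0.44 and Coa7 by 0.35 (limma adjusted p = 0.000716, 0.00234 and 0.0106). The remaining called genes of this list had limma adjusted p of 0.0308 to 0.0457. Their calls were not followed gene by gene under the alternative settings. Factors that assemble complex I had 2 of 15 higher. These were Ecsit, also a signalling adaptor of Toll-like receptors (0.37, limma adjusted p = 0.0202), and Ndufaf6 (0.21, limma adjusted p = 0.0394). Ecsit was not called without St2-/- replicate 1 or 3, nor without wild type replicate 1 or 2 (limma adjusted p 0.0622 at the lowest and 0.0739 at the highest). Ndufaf6 was not called without any 1 of the 6 arrays (0.0631 to 0.123) or with the intensity trend (0.103). Of 4 assembly factors of complex II, 6 of complex III and 4 assembly factors and inhibitors of complex V, 0 were called in limma. At an unadjusted p under 0.05 these lists had 0, 2 and 2 genes: Uqcc2 (-0.20) and Uqcc1 (0.20), and Atpaf2 (0.18) and Atpaf1 (0.20).

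Other routes into the chain changed at single genes. Gpd2, the mitochondrial glycerol-3-phosphate dehydrogenase that feeds electrons from glycolysis to ubiquinone, had 8.28, 8.23 and 8.27 in St2-/- samples, against 7.42, 7.49 and 7.38 in wild type samples. Its rise of 0.83 ± 0.06 (SE, limma adjusted p = 1.46e-05), a 1.78-fold higher level, exceeded that of every one of the 83 members. Vdac2, a channel of the outer membrane, rose by 0.27 (limma adjusted p = 0.0118; 0.0523 without St2-/- replicate 3 and 0.0590 after cyclic loess), and 12 of the 14 genes of this list were not called. Of 12 genes of coenzyme Q synthesis 0 were called in limma, and 1 (Coq5, 0.17) had an unadjusted p under 0.05. In the citric acid cycle 3 of 17 genes (17.6%, against 20.8% of all genes) rose: the isocitrate dehydrogenase subunits Idh3b (0.27) and Idh3g (0.26) and Dlat (0.25), of pyruvate dehydrogenase. Each of these 3 lost its call after cyclic loess (limma adjusted p = 0.0712, 0.136 and 0.123) and without some arrays: Idh3b without St2-/- replicate 1 or 3 (0.0551 and 0.0645), Idh3g without those or wild type replicate 1 (0.0806 to 0.0936), and Dlat without any array other than St2-/- replicate 1 (0.0820 to 0.131).

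Among 23 regulators of mitochondrial genes and function 3 were called higher and 1 lower (17.4%, against 20.8% of all genes). Acod1, which makes itaconate, had 10.84, 10.82 and 10.88 in St2-/- samples, against 10.00, 9.92 and 9.80 in wild type samples (0.94 ± 0.07 SE, limma adjusted p = 1.40e-05). Polg2, the accessory subunit of the polymerase that copies mitochondrial DNA, had 7.85, 7.75 and 7.75 in St2-/- samples, against 8.59, 8.56 and 8.69 in wild type samples, and fell by 0.83 on the log2 scale (SE 0.07, limma adjusted p = 2.25e-05). Both kept their calls under all 14 alternative settings. Nfe2l2, the factor of the antioxidant response, rose by 0.31 (limma adjusted p = 0.00638). Hif1a, the hypoxia factor, rose by 0.23 (limma adjusted p = 0.0331), but the p was 0.167 after cyclic loess and 0.0655 to 0.121 without any array other than wild type replicate 1.

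Other families of housekeeping genes also held more rises than falls. Of 83 members 13 were higher and 1 lower, of 77 mitochondrial ribosomal protein genes 14 were higher and 0 lower (18.2% called), and of 70 cytosolic ribosomal protein genes 26 were higher and 0 lower (37.1% called). Over all genes 20.8% were called and 10.7% were higher, and in the brightest bin 37.8% and 26.4%. The families differ in signal, with 57 of 83 members, 13 of 77 mitochondrial and 50 of 70 cytosolic ribosomal genes in the brightest bin. The median differences were 0.11, 0.14 and 0.165 in the same order. Whether these families differ from one another was not tested.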

How the data were processed

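RNA of F4/80+ tumour cells from 3 St2-/- and 3 wild type hosts was hybridised to Affymetrix Gene 1.0 ST arrays, per the labels' protocols. Per the submitters' processing notes the authors used RMA, and the deposited table holds its output, taken here as log2 from the range of its values. RMA makes the distribution of intensities equal on all arrays, which hides any change common to the whole transcriptome. Its version and the genome build: not given in the sources used here.

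Of 35556 probe sets 21789 carried 1 gene symbol in the platform annotation, and each gene took its brightest probe set (mean of the 6 arrays). All 19938 genes were fitted in R 4.3.3 by limma 3.58.1, using lmFit and eBayes with two-sided p-values and Benjamini-Hochberg adjustment, with no filter on dim genes. The test was tested on simulated data. Values of other probe sets come from a fit over all rows. Among 26 other probe sets of 17 members, 21 had the sign of the main one and 3 were called, where 12.9% of all probe sets were called. The mitochondrial genes mt-Nd3 and mt-Co2 carry the names ND3 and COX2 in the annotation. Promoter windows are from RefSeq (GRCm38.p6).

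The members, lists and tests were chosen with earlier results of these data known. Named are all called members, the extremes of each complex, isoform pairs, catalytic and redox subunits, and up to 4 genes of each further pathway list by smallest p. Tnnt2 and the macrophage markers named were chosen after their values were seen. Alternatives were 2 other array scalings, 2 variance priors, array weights, the mean of all probe sets, dropping genes in the lowest 40% of signal, a block for replicate number, and dropping each array in turn. Marker lists of cell types not named in the report gave these counts: B cells 2 higher of 4, endothelial cells 2 higher and 4 lower of 7, epithelial cells 1 lower of 5, testis germ cells 0 of 7, and red blood cells 1 lower of 1.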

Additional observations from a re-analysis of the deposited data

How the results depend on the processing

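The 14 alternatives reversed 0 of the called values, and 7 of the 14 called members (Ndufb5, Ndufa6, Ndufc2, Uqcrc2, Cox7a2l, Cox4i2 and Cox7a1) kept their calls under all of them. Scaling moved the results most: centring array medians shifted the median of all genes by 0.09 and the members' median to 0.20, with 34 members and 36 other pathway genes higher, and 74.0% of all calls higher against 51.7%. Cyclic loess gave a members' median of 0.025, 7 members higher and 3 lower, and 11 other pathway genes higher and 7 lower. A variance prior with an intensity trend gave 24 members higher and 4 other pathway genes lower. Leaving out 1 array gave 7 (without St2-/- replicate 3) to 11 members higher, 1 to 2 lower (2 without wild type replicate 3), a members' median of 0.10 to 0.12, and 9 to 14 other pathway genes higher and 2 to 4 lower. The cause of these moves was not tested. Same-numbered samples did not deviate together (correlations of deviations 0.01, -0.01 and -0.05 for replicates 1, 2 and 3). With 3 arrays a group these correlations cannot show whether the samples were paired by number. With the replicate number as a block 11 members were higher and 1 lower, and Ndufs5 and Atp5c1 lost their calls. Differences below about the 95% interval of a gene cannot be resolved with 3 arrays a group.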
